A study of Homo sapiens with 9 samples.

Results

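A block of 52 genes on the long arm of human chromosome 1 (1q31-q32), of 42717 genes in the count table, is described here across 9 RNA-seq libraries of pancreatic ductal adenocarcinoma cells. The genes lie between NEK7 and SLC41A1, at chr1:198156998-205813198 on GRCh38.p14, an interval of 7.66 Mb that holds 112 further genes of the table. They were chosen by their position together with the lower fold changes of S2-028 in these libraries, so their S2-028 values are given as a description, without a test. The members are all protein-coding genes. CPM are counts scaled by library size with TMM factors over the 9 libraries. Of the 52, 48 had enough reads to be tested in every comparison. The other 4, TNNT2, FMOD, LRRN2 and KLHDC8A, had at most 0.216 CPM in any library and were not tested.

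The lines were S2-007, S2-028 and S2-020, sublines of the pancreatic cancer line SUIT-2, with 3 libraries per line. All were grown without treatment in DMEM with inactivated fetal bovine serum. Maspin, a member of the serpin family, is nuclear and cytoplasmic in S2-007 (panMaspin), cytoplasmic in S2-028 (cytMaspin) and weakly expressed in S2-020. Each state of maspin is represented by 1 line, so line and maspin localization cannot be told apart. Nothing in the labels says whether the 3 libraries of a line came from separate cultures, and p-values measure the spread between these libraries only.

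The long arm of chromosome 1 is often gained in epithelial cancers, and it carries many genes expressed in pancreatic tumours. The segment described here holds genes with unrelated roles, among them the MDM2 relative MDM4, the epithelial transcription factor ELF3, the histone demethylase KDM5B and the nuclear receptor NR5A2, which governs acinar cell identity in the normal pancreas. The libraries measure RNA only.

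Total counts ranged from 60328748 to 86253923 per library. All 7 markers of ductal epithelium exceeded 1 CPM in every library, whereas none of 5 acinar and islet markers did. Of 4 leukocyte markers only CD68 exceeded it in every library, the pan-leukocyte gene PTPRC was at most 0.407 CPM, and the leukocyte sum was 38.9 to 43.7 CPM in S2-007, 7.73 to 9.29 in S2-020 and 10.4 to 12.3 in S2-028. The summed ductal markers also differed, at 9568 to 10100, 4316 to 5433 and 15180 to 17790 CPM in the same order, and the part of these differences in the results was not tested. The fibroblast sum was at most 5.56 CPM, and 1 of 4 fibroblast markers exceeded 1 CPM in every library. Of 2 endothelial markers 1 exceeded it in every library, and PECAM1 reached 8.87 CPM. The endothelial sum was 5.65 to 7.51 CPM in S2-007, 8.56 to 9.7 in S2-020 and 5.3 to 6.99 in S2-028.

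To show what surrounds the start sites of the genes that the results turn on, the 250 bases before the RefSeq start site (GRCh38.p14) are printed for 3 members. ATP2B4 had the lowest S2-028 level relative to the other lines, ELF3 was the most abundant member per kilobase in S2-007, and NUCKS1 had overlapping levels in S2-028 and S2-007. Capitals mark matches to the motifs searched. These are GGGCGG (GC box) and CATTCC (the TEAD core GGAATG on the other strand) in ATP2B4, CCAAT and TATAAA in ELF3, and GGGCGG and CCAAT in NUCKS1. The windows are chr1:203626582-203626831 on the plus strand, chr1:202010337-202010586 on the plus strand and chr1:205750183-205750432 on the minus strand.
ATP2B4: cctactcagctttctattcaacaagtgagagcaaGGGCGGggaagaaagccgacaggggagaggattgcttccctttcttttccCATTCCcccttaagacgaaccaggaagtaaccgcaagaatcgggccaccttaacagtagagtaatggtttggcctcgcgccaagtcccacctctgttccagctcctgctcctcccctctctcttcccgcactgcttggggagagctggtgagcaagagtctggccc
ELF3: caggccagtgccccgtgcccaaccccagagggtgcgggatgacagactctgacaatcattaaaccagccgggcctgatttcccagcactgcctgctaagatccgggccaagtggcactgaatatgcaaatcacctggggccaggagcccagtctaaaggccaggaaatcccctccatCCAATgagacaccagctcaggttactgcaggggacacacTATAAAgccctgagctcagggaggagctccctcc
NUCKS1: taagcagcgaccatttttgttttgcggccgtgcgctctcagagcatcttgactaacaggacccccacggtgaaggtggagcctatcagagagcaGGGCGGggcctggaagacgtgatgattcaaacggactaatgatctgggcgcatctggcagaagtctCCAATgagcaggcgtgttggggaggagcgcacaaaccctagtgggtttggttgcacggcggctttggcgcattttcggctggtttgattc

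Among 47 members with a promoter sequence, the window from 250 bases before to 50 after the start had a median GC content of 61.7%, against 58.3% over 27300 RefSeq genes, non-coding genes included. The GC box (GGGCGG, both strands) was present in 63.8% of members and 44.6% of all genes. The CCAAT box (CCAAT) was present in 40.4% and 35.7%, the TATA box (TATAAA) in 10.64% and 11.95%, and the ETS core (CGGAAG) in 21.3% and 19.9%. The E-box (CACGTG) occurred in 8.51% and 7.43%, the TEAD core (GGAATG) in 19.1% and 14.1%, and the AP-1 site (TGAGTCA) in 2.13% and 4.92%. The GC box and the ETS core can share the bases CGG, and a match says only that the letters are present. NEK7, CAMSAP2, KIF21B, PHLDA3 and CYB5R1 were not matched.

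Taken as a block, the members had less RNA in S2-028 than in either other line. Their summed level was 2207 ± 16.6 CPM (SD, n = 3) in S2-007, 2458 ± 73.8 in S2-020 and 1451 ± 10.8 in S2-028. The libraries of S2-028 lay between 1439 and 1461 CPM, below the lowest S2-007 library at 2196 and the lowest S2-020 library at 2394. NUCKS1 alone supplied 217.6, 545.9 and 212 CPM of the mean sums of S2-007, S2-020 and S2-028. In bulk RNA, fewer cells with a transcript and less of it per cell cannot be told apart.

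DEGs were genes with an adjusted p below 0.05 that differed by 1.5-fold or more. Of 48 members tested, 22 were called lower and 1 higher (ZNF281) in S2-028 against S2-007, where 8.19% of all 26371 genes tested were called lower and 10.2% higher. Against S2-020, 25 members were called lower and 3 higher (NR5A2, PHLDA3 and SLC45A3), beside 10.1% and 12.1% of 26031 genes. These counts restate how the members were chosen. The median log2 fold change of the members was -0.52 (quartiles -0.79 and -0.25) against S2-007 and -0.62 (quartiles -0.91 and -0.35) against S2-020. Over all genes tested the medians were 0.00 and 0.02.

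The lower level was shared by most members without being universal. Every S2-028 library lay below every S2-007 library for 34 members (21.3% of all genes tested), above for 3 and overlapped for 11. Against S2-020 the counts were 33 below (24.6% of all genes tested), 5 above and 10 overlapping. For 28 members every S2-028 library lay below all 6 others, against 11.1% of 25347 genes tested in both comparisons. DEG calls as lower were made against both lines for 17 members, against S2-007 only for 5, against S2-020 only for 8 and against neither for 18. Shares over all genes are not given for this split, nor for the counts above and overlapping. All these counts restate how the members were chosen. Against S2-007, 22 members lay within 0.25 of the members' median on the log2 scale. The interquartile range of the 35 members with a mean log2 CPM from 3 upwards was 0.52, beside 0.54 over all genes at that level.

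**Figure D1:**
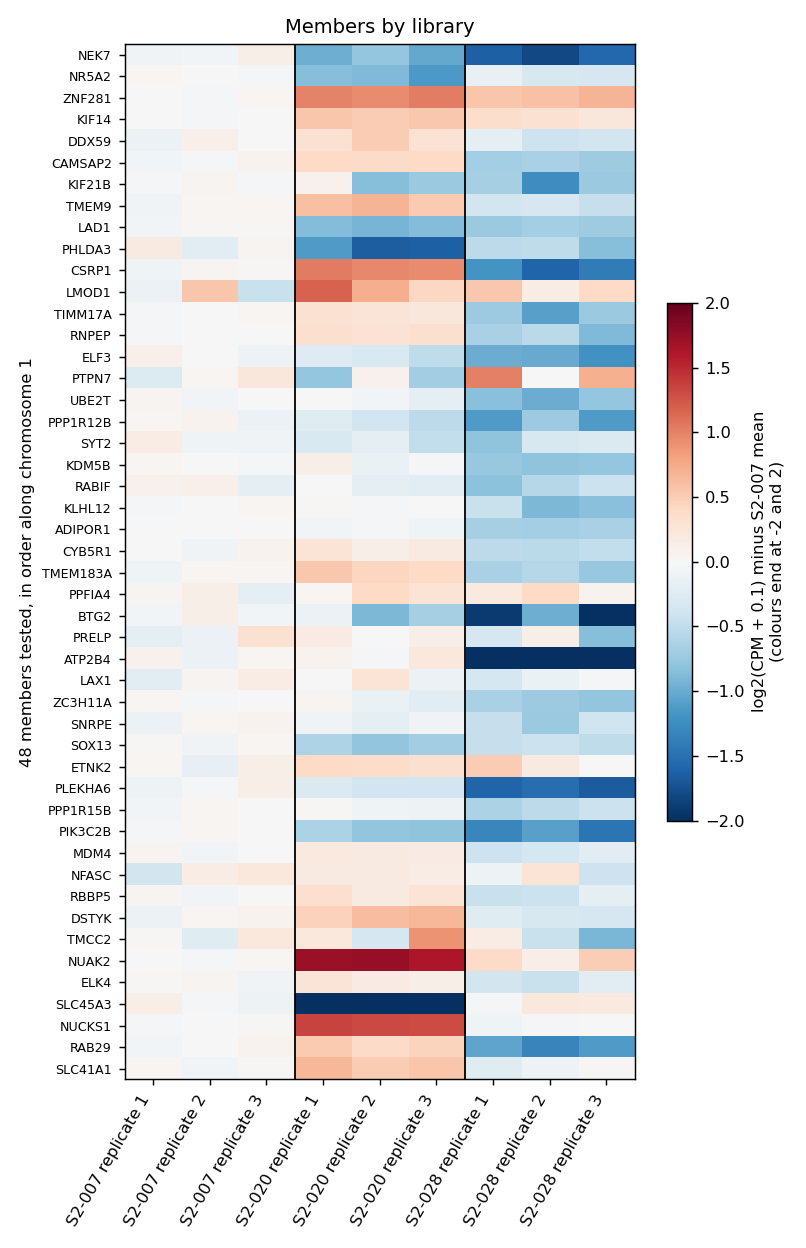
Each row is 1 of 48 members tested, in chromosome order, and each column is 1 library. Colour is log2(CPM + 0.1) minus the S2-007 mean, blue lower and red higher, with the scale ending at -2 and 2. Blue fills most of the S2-028 columns, while the S2-020 columns are mixed. Genes red in all 3 S2-028 columns include ZNF281, KIF14, NUAK2 and LMOD1.

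Lower values lay next to each other along the chromosome. Over 41 protein-coding genes of the interval whose mean log2 CPM reached 3, 38 had a lower mean in S2-028 than in S2-007 and 37 a lower mean than in S2-020. Among these 41 genes, the longest unbroken run of lower means against S2-007 extended from DDX59 to ELK4. It held 33 genes over 4.97 Mb, of which 27 were members, with a median log2 fold change of -0.68. The interval was chosen together with lower S2-028 values, so this run and these counts are a description. Less expressed members do not enter this run. Within the same stretch LMOD1 (0.36), PTPN7 (0.78), PPFIA4 (0.31), ETNK2 (0.24) and NUAK2 (0.35) had higher means, without a call. The other tested members left out, KIF21B, PHLDA3, SYT2, BTG2, PRELP, LAX1, NFASC and TMCC2, had lower means. At the proximal end, ZNF281 and KIF14 lay above S2-007 and interrupted the block between NR5A2 and DDX59. At the distal end, SLC45A3, NUCKS1 and SLC41A1 were close to their S2-007 levels, whereas RAB29 between them was lower.

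**Figure D2:**
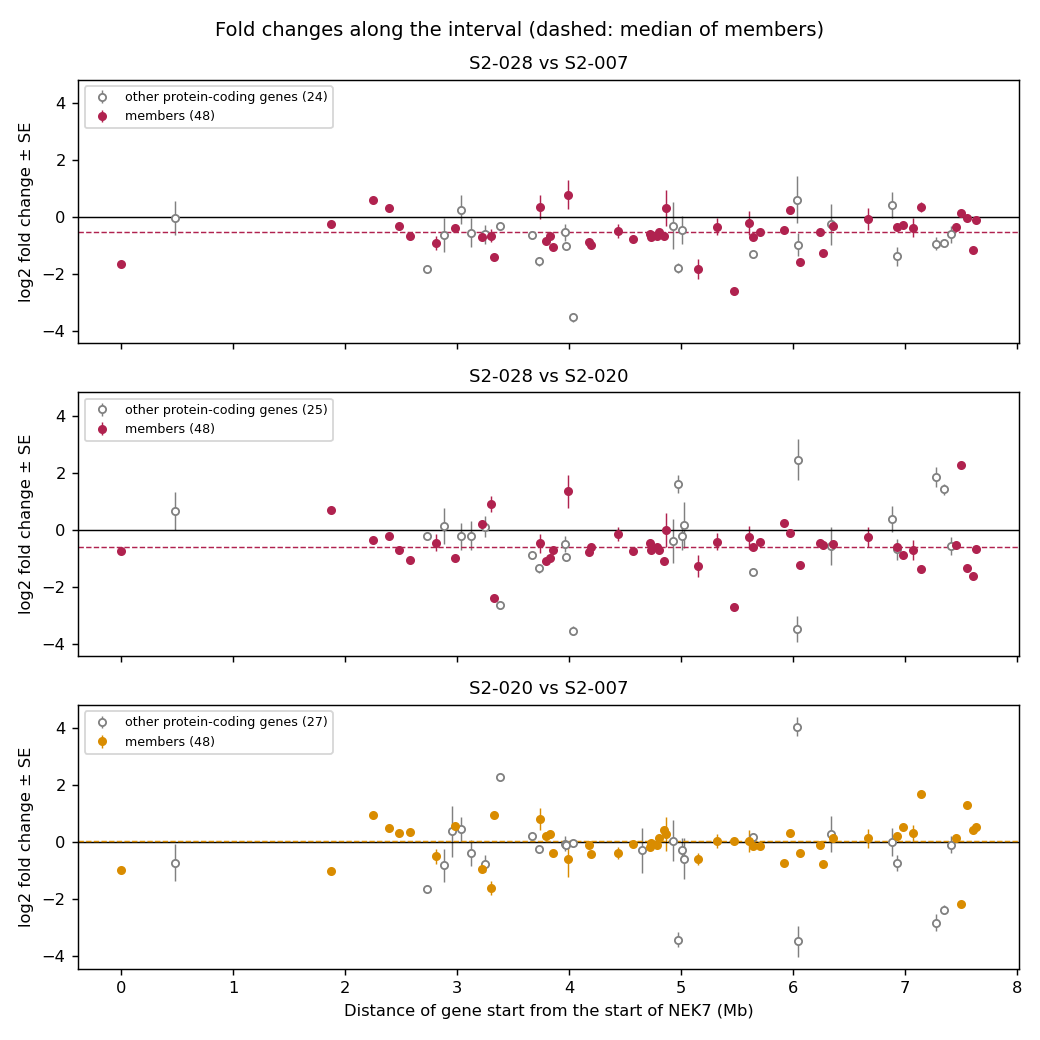
Log2 fold change with its standard error for members (filled) and other protein-coding genes (open) by distance in Mb from the start of NEK7, for the 3 comparisons. In both S2-028 panels most filled points lie below 0, with dashed medians at -0.52 and -0.62, whereas in S2-020 against S2-007 they scatter about a median of 0.05.

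The edges of the block had mixed values. Just inside its proximal edge, NEK7 was at a log2 fold change of -1.67, NR5A2 at -0.26 and ZNF281 at 0.61 against S2-007. Just outside, DENND1B was at -0.11, C1orf53 at -1.25 and LHX9 at -1.09. Beyond the distal edge, SLC26A9, RAB7B and CTSE had at most 0.454 CPM in any library and give no usable edge, while SLC41A1, the last member, was at -0.10.

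Along the chromosome, expressed protein-coding genes of 1p had a median log2 fold change of -0.02 (603 genes) in S2-028 against S2-007, and those of 1q before the interval -0.07 (253 genes). Inside the interval the median was -0.66 (41 genes), and for the 140 genes of 1q after it the median was -0.31, with a lower mean in 112 of 140. Against S2-020 the medians were -0.20, -0.25, -0.71 and -0.55 in the same order. As the interval was chosen together with lower S2-028 values, a low inside it restates that choice. A running median over 25 genes reached its lowest value on the chromosome inside the interval in both S2-028 comparisons, at -0.72 and -0.79. Against S2-020 it was nearly as low elsewhere on 1q, down to -0.75 before the interval and -0.77 after it. There, 126 of 140 genes after the interval had a lower mean. Against S2-007 the lowest value on 1q before the interval was -0.63. Windows centred near an edge include genes from both sides. The running median stayed between -0.49 and -0.19 from the interval to the distal end of 1q against S2-007, so the lower values did not stop at SLC41A1. In S2-020 against S2-007 the running median lay between -0.08 and 0.23 inside the interval.

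**Figure D3:**
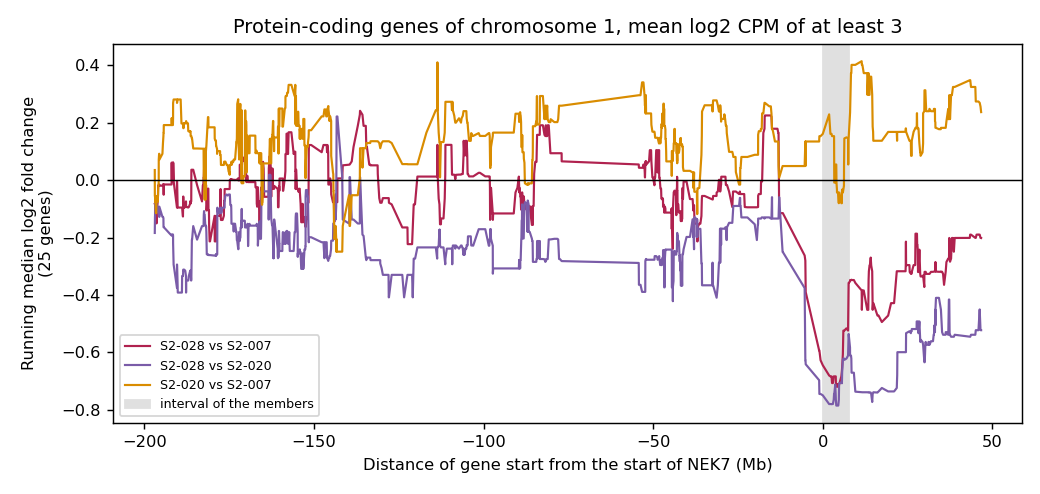
Running median of log2 fold change over 25 expressed protein-coding genes of chromosome 1, by distance in Mb from the start of NEK7, for the 3 comparisons. The grey band is the interval of the members, chosen together with lower S2-028 values. There both S2-028 lines reach their lowest values of -0.72 and -0.79, and S2-020 against S2-007 stays between -0.08 and 0.23. Outside the band on 1q, S2-028 against S2-020 falls to -0.75 before it and -0.77 after it.

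Calcium transport and membrane traffic gave the largest difference of any member. Of 13 genes for membranes, transport and mitochondria, 5 were called lower in S2-028 against S2-007 and 7 against S2-020. Over all genes tested 8.19% and 10.1% were called lower. Like all counts by role below, these restate how the members were chosen. ATP2B4, which encodes the plasma membrane calcium pump PMCA4, stood at 30.2, 26.2 and 29.2 CPM in the S2-007 libraries and 30.02, 28 and 32.8 in the S2-020 libraries. In S2-028 it was at 4.16, 5.08 and 4.76 CPM. The S2-028 libraries were far below the others, whose values overlapped, and the log2 fold changes were -2.61 ± 0.11 (SE) against S2-007 and -2.70 ± 0.11 against S2-020. RAB29, a small GTPase of the Golgi and lysosome that recruits LRRK2, was at 18.6, 19.3 and 20.3 CPM in S2-007, 27.8, 25.4 and 26.3 in S2-020 and 9.27, 7.71 and 8.81 in S2-028. No library of S2-028 overlapped another line, with a log2 fold change of -1.17 ± 0.11 against S2-007.

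TIMM17A, a subunit of the TIM23 channel that imports proteins into mitochondria, had means of 65.5 ± 1.87 CPM (SD, n = 3) in S2-007, 78.6 ± 2.12 in S2-020 and 36.4 ± 4.81 in S2-028. TMEM183A (-0.65 ± 0.07), RABIF, a chaperone of Rab GTPases (-0.61 ± 0.13), and TIMM17A (-0.84 ± 0.08) completed the members of this group called lower against S2-007. TMEM9, a lysosomal membrane protein (-0.99 ± 0.07), CYB5R1, a cytochrome b5 reductase (-0.71 ± 0.10), and the magnesium transporter SLC41A1 (-0.67 ± 0.08) were called lower against S2-020 but not against S2-007, where they were at -0.39, -0.52 and -0.10. The 4 lowly expressed members SYT2, PPFIA4, TMCC2 and ETNK2 were called in neither comparison and lay between -0.48 and 0.31 against S2-007.

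SLC45A3, a solute carrier known as prostein, was an exception of the group. It stood at 25.1, 22.9 and 21.7 CPM in S2-007, 5.12, 5.22 and 5.52 in S2-020 and 22.8, 26.8 and 26.6 in S2-028. The S2-028 and S2-007 libraries overlapped (0.13 ± 0.09), and S2-020 was the low line.

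Cytoskeletal and mitotic members were lower apart from KIF14. Of 4 such genes, 3 were called lower in S2-028 against S2-007 and 2 against S2-020, beside 8.19% and 10.1% of all genes tested. NEK7, a mitotic kinase that is also needed for the NLRP3 inflammasome, was at 81.7, 82.5 and 93.5 CPM in S2-007, 43.7, 50.03 and 42 in S2-020 and 27.7, 24.6 and 28.6 in S2-028. The 3 lines followed S2-007, S2-020, S2-028 without overlap, and the log2 fold change was -1.67 ± 0.08 against S2-007. CAMSAP2, which binds the minus ends of microtubules, had means of 75.4 ± 3.47, 98.9 ± 0.353 and 46.9 ± 1.18 CPM in the same order. KIF21B, a kinesin, did not exceed 2.35 CPM and had log2 fold changes of -0.91 ± 0.25 and -0.45 ± 0.30 against S2-007 and S2-020. KIF14, a kinesin of cytokinesis, was at 57.4, 56.4 and 57.2 CPM in S2-007, 83.6, 81.2 and 82.7 in S2-020 and 72.8, 70.5 and 66.5 in S2-028. Its S2-028 libraries lay above S2-007 and below S2-020, with 0.30 ± 0.06 against S2-007, short of the fold threshold.

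Most transcription factors and chromatin genes had lower means in S2-028, 7 of 8 against S2-007 and 6 of 8 against S2-020. Of 8 members, 2 were called lower in S2-028 against S2-007, ELF3 and KDM5B, and 4 against S2-020, with RBBP5 and NUCKS1 added. Over all genes tested 8.19% and 10.1% were called lower. ELF3, an ETS factor of epithelia, was at 235, 219.8 and 204 CPM in S2-007, 183, 177 and 154 in S2-020 and 110.4, 109.5 and 95 in S2-028. Its S2-028 libraries were the lowest of the 9, at -1.06 ± 0.07 and -0.70 ± 0.07 on the log2 scale. KDM5B, a histone H3K4 demethylase, had means of 45.3 ± 1.09 CPM in S2-007, 45 ± 3.89 in S2-020 and 26.4 ± 0.450 in S2-028. RBBP5, a core subunit of H3K4 methyltransferase complexes, was at -0.35 and -0.62 against S2-007 and S2-020, and the ETS factor ELK4 at -0.35 and -0.53.

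The remaining factors did not share an order of the lines. NUCKS1, a chromatin-associated phosphoprotein and the member with the most reads, was at 215, 217 and 220.2 CPM in S2-007, 556, 544 and 537 in S2-020 and 205, 214 and 217 in S2-028. The S2-028 and S2-007 libraries lay side by side (-0.03 ± 0.06), and S2-020 was far above both. ZNF281, a zinc finger repressor, was at 29.9, 29.6 and 30.9 CPM in S2-007, 59.8, 58 and 61.3 in S2-020 and 44.4, 45.2 and 48.2 in S2-028. It was the only member called higher in S2-028 against S2-007 (0.61 ± 0.07), a call lost without S2-028 replicate 3 (0.57). NR5A2 was at 98, 95.2 and 93.7 CPM in S2-007, 52.9, 51.7 and 42.9 in S2-020 and 86.2, 76.8 and 75.6 in S2-028. Its S2-028 libraries were all below S2-007 and all above S2-020. SOX13 likewise lay between the other lines in S2-028, with means of 49.5 ± 2.02, 30.5 ± 1.87 and 35.7 ± 1.03 CPM in the order S2-007, S2-020, S2-028.

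The 3 members tied to growth control differed among themselves. MDM4, a relative and partner of the ubiquitin ligase MDM2, stood at 23.1, 21.4 and 22.1 CPM in S2-007, 25.5, 25.1 and 24.9 in S2-020 and 16.7, 17.4 and 18.9 in S2-028. All S2-028 libraries lay below the other 6, but the log2 fold changes of -0.33 ± 0.09 and -0.51 ± 0.09 did not reach the threshold. BTG2, an antiproliferative gene, was low, with means of 3.43 ± 0.243, 2.35 ± 0.697 and 0.964 ± 0.674 CPM in the order S2-007, S2-020, S2-028, and was called lower in S2-028 against both. PHLDA3, an Akt inhibitor, was at 2.60 ± 0.380, 0.884 ± 0.211 and 1.65 ± 0.222 CPM, so that S2-028 was called lower than S2-007 and higher than S2-020.

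The genes of ubiquitin transfer and proteolysis were called lower in 3 of 3 cases in each S2-028 comparison. Over all genes tested 8.19% were called lower against S2-007 and 10.1% against S2-020. RNPEP, aminopeptidase B, was at 90.4, 92.4 and 92.1 CPM in S2-007, 114, 112 and 115 in S2-020 and 58.2, 62.9 and 49.7 in S2-028. The S2-028 libraries were clear of both lines, at -0.68 ± 0.07 and -0.998 ± 0.07. UBE2T, the ubiquitin-conjugating enzyme of the Fanconi anaemia pathway, had means of 33.9 ± 1.25, 32 ± 2.16 and 18.6 ± 1.45 CPM in the order S2-007, S2-020, S2-028. KLHL12, a substrate adaptor of the CUL3 ubiquitin ligase, had 35.1 ± 0.758, 35 ± 0.629 and 21.4 ± 3.74.

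Of the 4 RNA and translation genes, 1 was called lower in S2-028 against S2-007 and 2 against S2-020, with a median log2 fold change of -0.52 against S2-007. ZC3H11A, a zinc finger protein of mRNA export, was at 136, 129.7 and 131 CPM in S2-007, 137, 121 and 114 in S2-020 and 84.4, 79.6 and 76.5 in S2-028. All S2-028 values lay below the others (-0.72 ± 0.06 and -0.63 ± 0.07). In GENCODE 87.3% of its exon bases, taken over all its transcripts, also lie under another gene, ZBED6 among them, so its counts may be shared. SNRPE, a core protein of the spliceosomal Sm ring, was at -0.52 and -0.42, and PPP1R15B, which directs dephosphorylation of eIF2alpha, at -0.52 and -0.48 against S2-007 and S2-020. Neither reached the fold threshold, although each S2-028 library of both genes lay below the other 6. DDX59, an RNA helicase, was at -0.33 and -0.70.

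Among 7 signalling genes, 3 were called lower against S2-007 and 4 against S2-020, beside 8.19% and 10.1% of all genes tested. PIK3C2B, a class II phosphoinositide 3-kinase, was at 26, 27.4 and 26.4 CPM in S2-007, 17, 15.3 and 15.2 in S2-020 and 10.7, 12.5 and 9.63 in S2-028. The lines did not overlap, at -1.28 ± 0.10 against S2-007 and -0.54 ± 0.11 against S2-020. PPP1R12B, a targeting subunit of myosin phosphatase, was at 23.8, 24.4 and 21.4 CPM in S2-007, 19.7, 17.8 and 16 in S2-020 and 10.5, 14 and 10.5 in S2-028. Its S2-028 libraries were again the lowest (-0.99 ± 0.11). ADIPOR1, the adiponectin receptor, was at 88, 86.9 and 87.7 CPM in S2-007, 84.5, 86.5 and 82.8 in S2-020 and 55.1, 54.5 and 55.8 in S2-028, with S2-007 and S2-020 near each other. DSTYK, a dual-specificity kinase (-0.88 ± 0.09), and NUAK2, an AMPK-related kinase (-1.38 ± 0.14), were called lower against S2-020 but not S2-007. PTPN7 and LAX1, genes of lymphocyte signalling, were at most 0.725 CPM throughout.

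In the adhesion, matrix and muscle group, 5 of 8 members were tested, and 2 were called lower against S2-007 and 1 against S2-020. Over all genes tested 8.19% and 10.1% were called lower. CSRP1, a LIM protein of the actin cytoskeleton, was at 21.1, 23.3 and 22.9 CPM in S2-007, 46.1, 43.8 and 43.4 in S2-020 and 9.72, 7.35 and 8.43 in S2-028. Its S2-028 libraries stood lowest, at -1.40 ± 0.11 against S2-007 and -2.38 ± 0.10 against S2-020. LAD1, ladinin of the basement membrane zone, was at 139, 148 and 148 CPM in S2-007, 79, 76.2 and 79.7 in S2-020 and 86.8, 90.5 and 88.8 in S2-028. S2-007 was the high line for LAD1, and S2-028 lay slightly above S2-020 (0.18 ± 0.06). PRELP, NFASC and LMOD1 were at most 1.78 CPM in every library and were not called in either comparison. PLEKHA6, a pleckstrin homology domain protein of epithelial junctions, is not counted in this group. It was at 160.2, 169 and 186 CPM in S2-007, 139.6, 131 and 132 in S2-020 and 56.3, 59.6 and 54 in S2-028. No S2-028 library of PLEKHA6 overlapped the others, at -1.60 ± 0.07 and -1.24 ± 0.06.

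**Figure D4:**
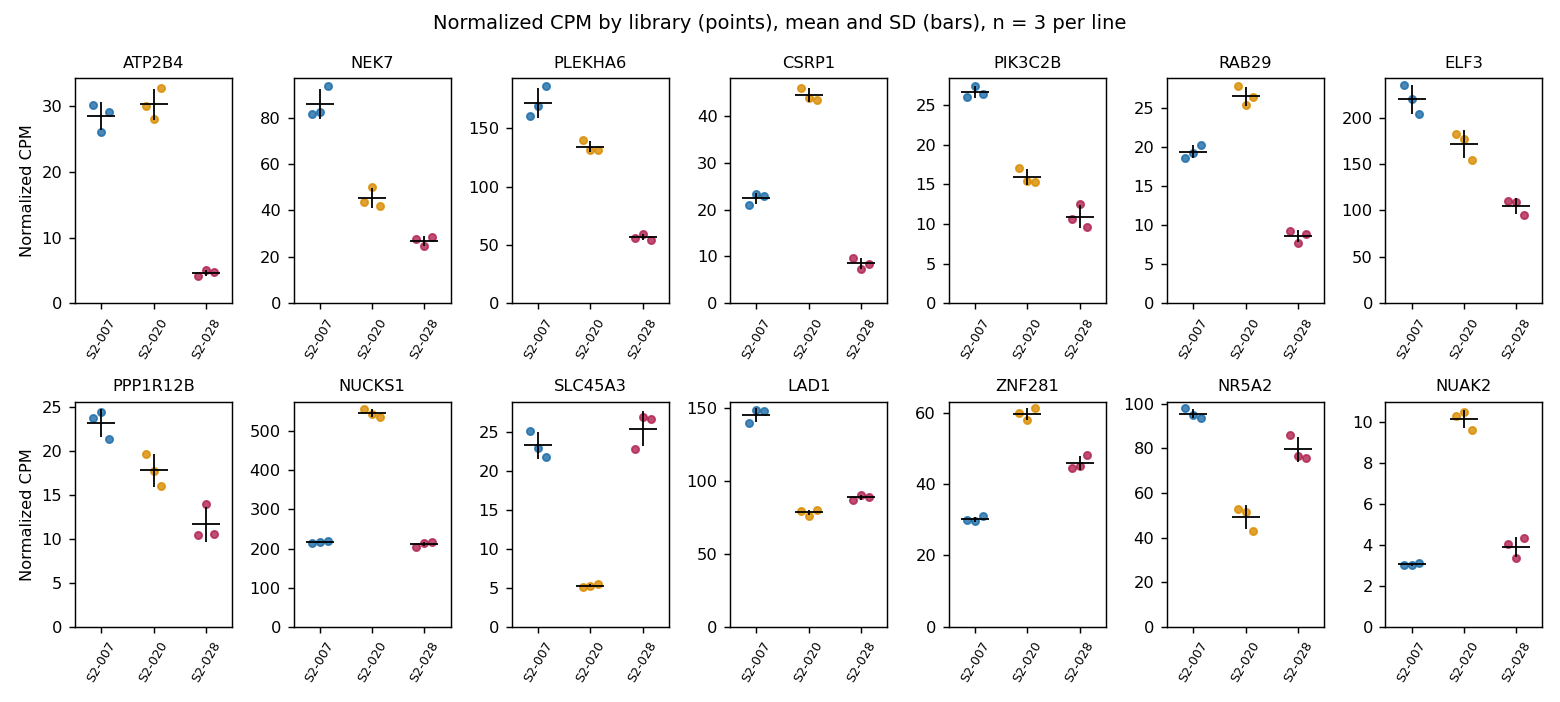
Normalized CPM of 14 members by line, 1 point per library, with the mean (dash) and SD (line), n = 3. ATP2B4, NEK7, PLEKHA6, CSRP1, PIK3C2B, RAB29, ELF3 and PPP1R12B are lowest in S2-028, whereas in NUCKS1 and NUAK2 S2-020 is high and in SLC45A3 and NR5A2 it is low.

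Levels can be ranked between genes only per length. Per kilobase of the canonical transcript, the most abundant members in S2-007 were ELF3 at 70.8 CPM per kb, LAD1 at 55.2, ADIPOR1 at 41.9, TIMM17A at 39.7 and UBE2T at 38.6. In S2-028 the same genes were at 33.8, 33.8, 26.4, 22.1 and 21.2 CPM per kb. NUCKS1, at 33.1 CPM per kb in S2-028 and 85.3 in S2-020, led in S2-020.

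The comparison of S2-020 with S2-007 uses no S2-028 library, although it shares the S2-007 libraries with a comparison that chose the members. Here higher and lower means among the members were similar in number. Of 48 members, 4 were upregulated and 7 downregulated in S2-020, 8.33% and 14.6% of those tested, near the background of 9.57% and 12.1% among 26657 genes. The median log2 fold change was 0.05 (-0.05 over all genes tested), with 26 means higher and 22 lower. At a like level, expressed protein-coding genes had a median of 0.05 inside the interval. It was 0.15 on 1p, 0.15 on 1q before the interval and 0.21 after it. The members' median was -0.0295 without S2-007 replicate 1 and 0.149 without S2-007 replicate 3, and 7 members were called upregulated without S2-007 replicate 2. All 11 calls held in every alternative analysis.

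The upregulated members in S2-020 were NUCKS1 (1.30 ± 0.05, adjusted p = 1.3e-14), NUAK2 (1.70 ± 0.13, adjusted p = 1.47e-09), CSRP1 (0.95 ± 0.07, adjusted p = 6.59e-10) and ZNF281 (0.95 ± 0.06, adjusted p = 9.82e-11). NUAK2 stood at 3.03, 3.00 and 3.12 CPM in S2-007 and 10.3, 10.5 and 9.61 in S2-020, beside 4.03, 3.34 and 4.31 in S2-028. The downregulated members were SLC45A3 (-2.17 ± 0.10, adjusted p = 6.51e-13), PHLDA3 (-1.59 ± 0.25, adjusted p = 2.31e-05), NR5A2 (-0.99 ± 0.07, adjusted p = 5.04e-10), NEK7 (-0.95 ± 0.07, adjusted p = 6.19e-10), LAD1 (-0.92 ± 0.05, adjusted p = 1.59e-11), PIK3C2B (-0.78 ± 0.08, adjusted p = 1.42e-07) and SOX13 (-0.73 ± 0.07, adjusted p = 2.62e-08). In each of these 11 genes the S2-020 and S2-007 libraries did not overlap. The genes were picked by their calls in the same libraries, so this is no further support.

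Other genes of the interval, not among the members, had more calls lower than higher in both S2-028 comparisons. The interval was chosen together with lower S2-028 values, so these counts are a description. Of 59 tested, non-coding genes included, 14 were called lower and 1 higher in S2-028 against S2-007, with a median log2 fold change of -0.26. Over all genes tested 8.19% were called lower and 10.2% higher. The higher call was lost at 10 or more counts in every library and without S2-007 replicate 1, S2-028 replicate 2 or S2-028 replicate 3. Against S2-020, 9 of 59 were called lower and 5 higher, with a median of -0.10, beside 10.1% and 12.1% of all genes tested. Of 24 other protein-coding genes tested against S2-007, 10 were called lower and 0 higher (0 also by DESeq2, and 0 at an unadjusted p under 0.05), with a median of -0.62. LGR6, a receptor for R-spondins, was at 70.01, 73.8 and 65.7 CPM in S2-007, 73.4, 71.3 and 68.2 in S2-020 and 5.41, 8.49 and 4.33 in S2-028. Its difference (-3.52 ± 0.15 against S2-007) was larger than that of any member. IPO9, a nuclear import receptor, was at 127, 138 and 137 CPM in S2-007, 163, 168 and 151 in S2-020 and 88.6, 86.2 and 85.3 in S2-028, with S2-028 lowest.

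INAVA, an epithelial junction protein, was at 209, 199 and 215 CPM in S2-007, 74.9, 66.8 and 63.9 in S2-020 and 61.1, 56 and 60.1 in S2-028. S2-007 was its high line, and S2-020 was downregulated against it (-1.63 ± 0.06, adjusted p = 2.55e-14). NAV1, a microtubule-binding guidance protein, was at 12.9, 13.7 and 14.1 CPM in S2-007, 60.5, 69.9 and 75.3 in S2-020 and 9.97, 11.2 and 11.5 in S2-028. It was upregulated in S2-020 against S2-007 (2.31 ± 0.08, adjusted p = 6.52e-15). ZBED6, encoded within ZC3H11A, was at -1.30 ± 0.11 against S2-007. Against S2-020 the other protein-coding genes were more mixed, with 7 of 25 called lower and 4 higher, beside 10.1% and 12.1% of all genes tested.

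Genes elsewhere whose products work with a member had a median near that of all genes. Among 33 partners of member complexes, 3 were upregulated and 0 downregulated in S2-028 against S2-007 (0 downregulated also by DESeq2, 10 lower at an unadjusted p under 0.05), with a median log2 fold change of 0.01. Over all genes 10.2% were upregulated and 8.19% downregulated. The upregulated genes were SNRPD2, an Sm protein like SNRPE (0.60 ± 0.07, adjusted p = 2.54e-07), FANCD2, the substrate of UBE2T's pathway (0.64 ± 0.07, adjusted p = 3.08e-07), and LRRK2, the kinase recruited by RAB29 (0.72 ± 0.20, adjusted p = 0.00776). SNRPD2 was no longer called without S2-007 replicate 1 or S2-028 replicate 1, nor LRRK2 without S2-007 replicate 3 or S2-028 replicate 2. Against S2-020, 1 partner was upregulated and 3 downregulated in S2-028, beside 12.1% and 10.1% of all genes tested. Those downregulated were SRF, which works with ELK4 (-0.84 ± 0.06), SEC31A, a COPII protein modified through KLHL12 (-0.92 ± 0.05), and TIMM21 of the TIM23 channel (-0.66 ± 0.10). In S2-020 against S2-007, 2 partners were upregulated (TIMM50 and LRRK2) and 1 downregulated (DPY30), beside 9.57% and 12.1% of all genes tested. Without S2-007 replicate 3, 6 partners were called in all.

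Paralogues of members, encoded elsewhere, moved in both directions. Of 47 tested of 50, 7 were upregulated and 8 downregulated in S2-028 against S2-007, with a median of 0.06. Over all genes tested 10.2% were upregulated and 8.19% downregulated. The downregulated genes included CYB5R2 (-2.71 ± 0.13, adjusted p = 3.63e-13) and CYB5R3 (-0.87 ± 0.06, adjusted p = 2.04e-10), paralogues of CYB5R1, and SLC41A2 (-1.28 ± 0.07, adjusted p = 9.85e-12). RNPEPL1 (-0.89 ± 0.06, adjusted p = 1.85e-10) and CAMSAP3 (-0.81 ± 0.07, adjusted p = 1.03e-08) were also downregulated. Those upregulated included RAB38 (1.91 ± 0.13, adjusted p = 1.02e-10), PHLDA1 (1.07 ± 0.06, adjusted p = 1.79e-12) and NEK6 (0.93 ± 0.07, adjusted p = 2.74e-10). Against S2-020 the counts were 10 upregulated and 6 downregulated, beside 12.1% and 10.1% of all genes tested. In S2-020 against S2-007 they were 7 and 10, beside 9.57% and 12.1%.

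**Figure D5:**
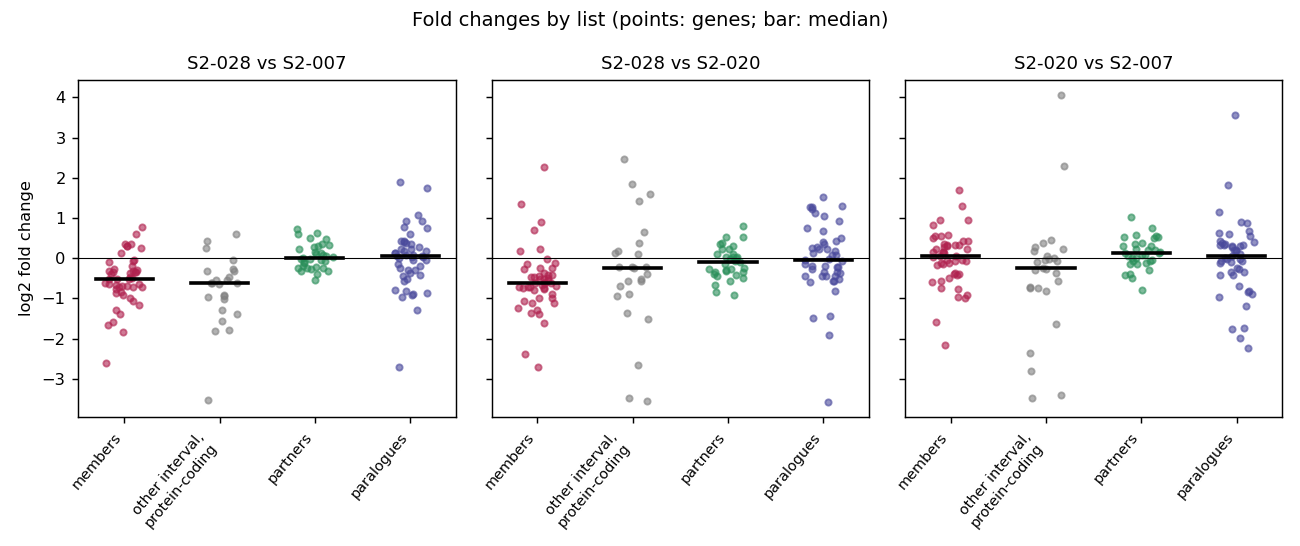
Log2 fold change of each gene (point) and the median (bar) for members, other protein-coding genes of the interval, partners and paralogues in the 3 comparisons. In S2-028 against S2-007 the member and interval medians are at -0.52 and -0.62 and the partner and paralogue medians at 0.01 and 0.06.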

How the data were processed

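RNA from 3 SUIT-2 sublines was sequenced as strand-specific mRNA libraries, 3 per line. According to the submitters' processing notes, tools were Trimmomatic 0.39, BWA 0.7.17, SAMtools 1.12 and edgeR 3.16.5, and the build was GRCh38.p14. The counting tool and its use of strand are not given in the sources used here. BWA does not join reads across introns, which can lose junction reads. The authors deposited whole-number counts of reads per gene without normalization, which were used, and 18 columns of normalized signal of their own, which were not used. A further 2 rows name no gene and stayed out of all totals. Of 42717 gene identifiers, 42539 (99.6%) matched RefSeq.

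All genes were fitted with edgeR 4.0.16 (R 4.3.3): filterByExpr (minimum count 10, minimum total 15), TMM, glmQLFit and glmQLFTest on the 6 libraries of each pair of lines, with Benjamini-Hochberg adjustment over all genes tested. Standard errors (SE) of log2 fold changes follow from the change and its F statistic. Genes were taken as expressed at a mean log2 CPM of at least 3. Alternatives were DESeq2 1.42.0, the likelihood ratio test, other scalings and filters, a replicate block and leaving out each library. The procedure was tested on simulated data. Libraries of 1 line differed by a chi-square per gene of at least 7.95, so none was treated as a copy of another.

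The members and gene lists were chosen with earlier results of these data known. Values in every library are given for the 8 most abundant members, the 8 with the largest and the 4 with the smallest fall in S2-028 against S2-007 among expressed members, and the 8 with the smallest adjusted p in S2-020 against S2-007. Of the 6 most abundant other interval genes 5 are named and 1 is not reported here, and of partners and paralogues at most 8 called in S2-028 against S2-007. Further genes of these lists, among them the partners called in other comparisons, were named after their values were seen. Libraries with the same replicate number did not deviate together (r between -0.0219 and 0.014), so the numbers do not pair them. Lengths and overlaps are from GENCODE 44.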

Additional observations from a re-analysis of the deposited data

How the results depend on the processing

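The direction of the members' medians in both S2-028 comparisons held in every alternative, their counts called lower stayed within 1.5 times of those reported, and no called value changed sign. In S2-028 against S2-007, members called higher ranged from 0 to 1 with single libraries left out (0 without S2-028 replicate 3), and other interval genes called higher from 0 to 1, with 0 also at 10 or more counts in every library. Against S2-020, other interval genes called higher ranged from 3 to 5 (3 without S2-028 replicate 1). In S2-020 against S2-007, members called higher ranged from 4 to 7 (7 without S2-007 replicate 2), and their median from -0.0295 (without S2-007 replicate 1) to 0.149 (without S2-007 replicate 3), so its sign is not fixed. There, partners called ranged from 3 to 6 and proliferation genes from 1 to 2, the highest both without S2-007 replicate 3, and 1 other interval gene was called higher at 10 or more counts. The causes were not tested. With a replicate block, 22 members were called lower and 1 higher against S2-007, 25 and 3 against S2-020, and 8 lower and 4 higher in S2-020 against S2-007. Among single named genes, 1638 of 1661 comparisons kept their direction and call, 20 lost the call and 3 gained it. Genes under about 1 CPM had standard errors too large for a call at moderate fold changes.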

Other observations

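The mitotic and replication genes of the proliferation list differed little between S2-028 and S2-007. Of 10 genes, 1 was upregulated, MCM2, a subunit of the replicative helicase (log2 fold change 0.99 ± 0.07, SE), and 0 were downregulated, with 0 by DESeq2 and 3 lower at an unadjusted p under 0.05. Over all genes tested 10.2% were upregulated and 8.19% downregulated. Against S2-020, AURKA (-0.75), PLK1 (-0.86) and CCNA2 (-0.62) of the 10 genes were downregulated in S2-028. Here 0 genes were upregulated, with 0 by DESeq2 and 3 higher at an unadjusted p under 0.05. Over all genes tested 10.1% were downregulated and 12.1% upregulated in that comparison. MKI67 was at -0.14 against S2-007 and -0.11 against S2-020. In S2-020 against S2-007 MCM2 was the only gene upregulated, and 0 were downregulated, with 0 by DESeq2 and 1 lower at an unadjusted p under 0.05. Over all genes tested the shares were 9.57% and 12.1%.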
